A study of Rattus norvegicus with 46 samples.

Results

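The effect of inhaled silica on lung gene expression was compared between 6 months and 1 day after exposure in male Fischer 344 rats, which the series title calls aged. For each gene, the log2 fold change of silica over air lungs at 1 day was subtracted from that at 6 months. This difference is called the interaction, and a positive value means that the silica effect was more positive at 6 months. On 5 days, for 6 hours each day, the whole body of each rat was exposed to Min-U-Sil 5, a fine crystalline quartz dust, at 15 mg/m3, or to filtered air. The lung samples are 22 of the 46 samples of the series, the other 24 being blood. They comprise 6 silica and 4 air lungs taken 6 months after exposure, and 6 silica and 6 air lungs taken 1 day after it. The lung samples of the 2 times carry different rat numbers, so no animal was followed over time. The labels give no age in months or weeks, and each lung sample carries a rat number but no litter or batch.

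Inhaled quartz is taken up by alveolar macrophages, where it damages lysosomes and starts the release of interleukin 1. Because the dust is cleared slowly, inflammation can outlast the exposure, with chemokines drawing monocytes and neutrophils into the lung and alveolar type 2 cells producing more surfactant. A silica effect that differs between 2 times can come from the exposed lungs, from the controls, or from both, so levels in the 4 groups are given for the genes described most fully.

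In 5 pairs of libraries within a group the counts differed by little more than sampling noise: by a chi-square test, 9.58% to 11.5% of genes differed at p under 0.05, against 22.8% to 74.2% in the other 46 pairs. Each pair was averaged and counted as 1 library. This left 17 libraries. The 6-month silica libraries are 30-31, 32, 33, 34 and 35, and their controls are air 19-24 and air 20-25. The 1-day silica libraries are 6 in number, and their controls are air 02-07, 04-08, 05 and 06. Values per library are given in this order. The spread behind each p-value is that between these libraries, and every 6-month comparison rests on 2 air libraries. The lung libraries held 13.4 M to 24.6 M estimated counts and 18853 to 19780 genes with a count. Markers of alveolar, airway and endothelial cells were present in every library, with Sftpc, the surfactant protein C gene, between 4980 and 18828 CPM, counts scaled to library size. Of the lung markers checked, the macrophage receptor Marco was near 0 (0 to 3.18 CPM), while the macrophage marker Cd68 was at 45.1 to 270.0 CPM. Heart muscle transcripts varied, with Myh6 at 2.23 to 187 CPM but Nppa at 0 in every library, where 3 counts would be 0.124 to 0.221 CPM. The fat markers Adipoq and Plin1 did not exceed 0.661 CPM.

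Of 16567 genes tested, the silica effect differed between 6 months and 1 day for 4436 (26.8%) at an adjusted p under 0.05 by edgeR's quasi-likelihood test. It was more positive at 6 months for 2012 genes (12.1% of those tested) and more negative for 2424 (14.6%). The silica effect itself passed for 6499 genes (39.2%) at 6 months and for 594 (3.59%) at 1 day. Both counts use 1 spread for each gene, shared by all 4 groups, and their contrast depends on that choice. With each time fitted on its own table, 3189 genes passed at 6 months and 1836 at 1 day. The median interaction over all genes was -0.02. Counts of list members past the interaction threshold, given below, are to be read beside the 12.1% and 14.6% of all genes. Those from the fit without air 19-24 are to be read beside the smaller count of that fit. The count depends on the air libraries of 6 months: without air 19-24, which leaves 1 air library at that time, 1642 genes passed, 1596 of them among the 4436.

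Genes past the interaction threshold were sorted by their 2 fold changes, late and early. Growing genes, whose fold change was larger in size at 6 months, numbered 3953, of which 1845 were growing upward and 2108 downward. Fading genes, whose fold change was larger in size at 1 day, numbered 189, with 66 up and 123 down at 1 day. Reversed genes, with opposite fold changes of at least 0.5 each on the log2 scale, numbered 294, of which 44 were up and 250 down at 6 months, and 26 of the 294 passed the test at both times. Opposite fold changes of which either was under 0.5 in size stayed among the growing and fading genes. Most growing and fading genes were of this kind. With any opposite signs called reversed, 1600 genes were growing, 10 fading and 2826 reversed. A further 229 genes were persistent, meaning that the silica effect passed at both times in the same direction (220 up, 9 down) and the interaction did not pass. Seen from the early side, the 594 genes changed at 1 day divided into 229 persistent, 162 growing, 88 fading and 30 reversed, with 85 in no class.

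**Figure D1:**
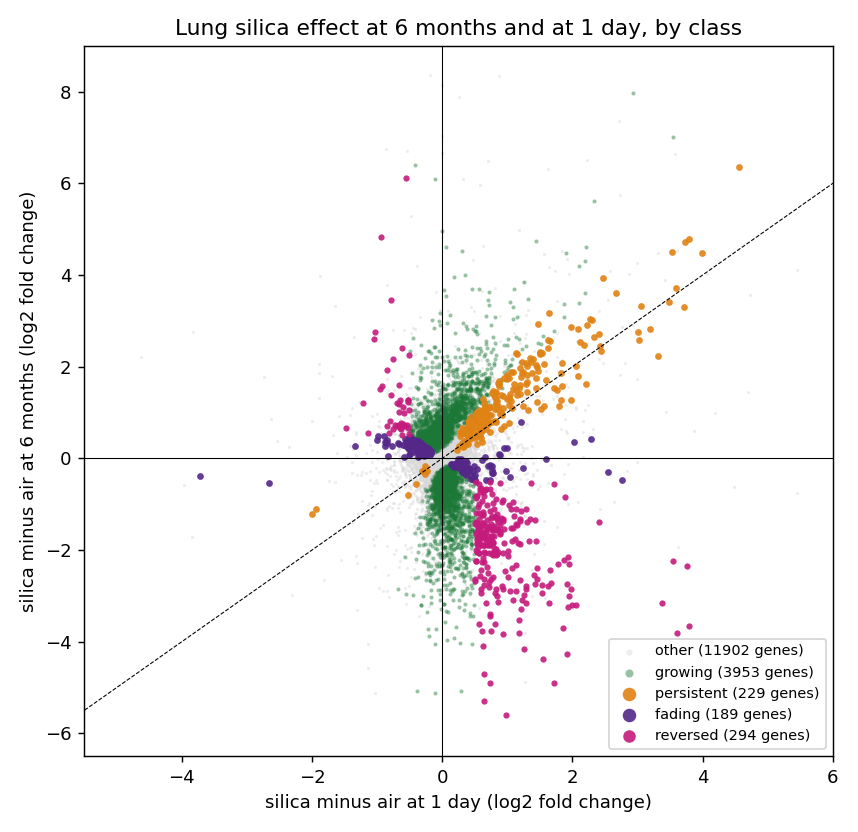
Log2 fold change of silica over air lungs at 6 months (vertical axis) against that at 1 day (horizontal axis) for each of 16567 genes, coloured by class, with a dashed line where both are equal; 16 genes lie outside the axes. The 3953 growing genes spread along the vertical axis, and the 229 persistent genes lie near the dashed line with both fold changes of the same sign.

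For each gene the group that stood apart was found from the 4 group means on the log2 CPM scale. A group is called driving where the other 3 means span at most 0.5 times its distance from them. Among the 4436 genes, the air lungs of 6 months were the driving group for 2840 (64.0%, against 31.8% of all genes tested). The silica lungs of 6 months drove 74 (1.67%, against 7.92% of all genes tested), 60 of them upward. The air lungs of 1 day drove 39 genes and the silica lungs of 1 day 3, and no single group stood apart for 1480. The interaction is also the change over time in silica lungs minus that in air lungs. Tests of these changes use the same 4 group means and are no separate evidence. By these tests 3618 of the 4436 genes (81.6%) changed between the times in air lungs and not in silica lungs, and 226 changed in silica lungs and not in air lungs. Of all 16567 genes, 6877 changed in air lungs and 1597 in silica lungs. The 2 times were deposited as separate tables, so in a change within silica lungs or within air lungs, time and table cannot be told apart. The driving group is a description with no test of its own.

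**Figure D2:**
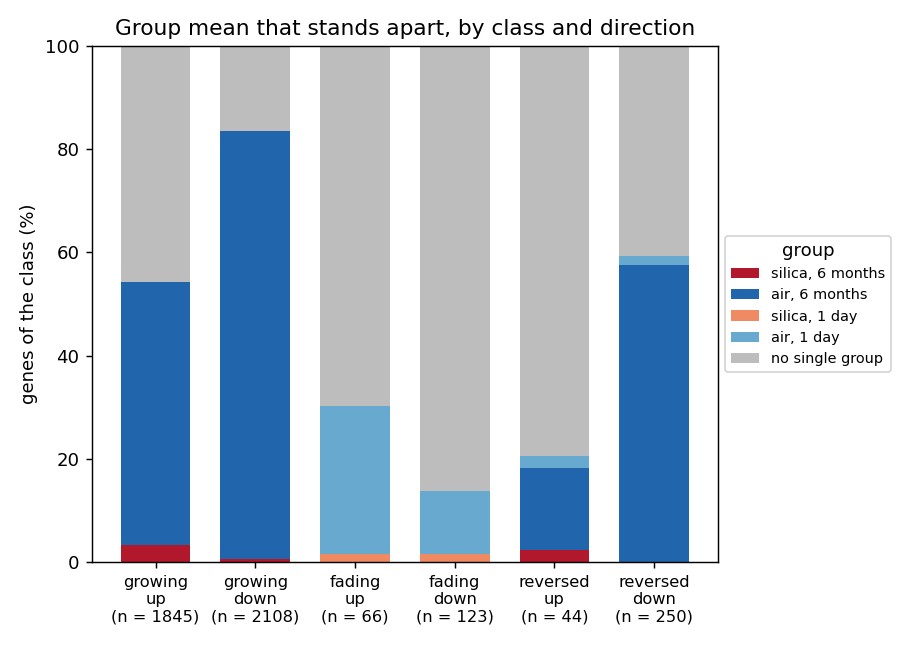
Share of the genes of each class and direction (percent, vertical axis, stacked) by the group mean that stood apart from the other 3. The air lungs of 6 months fill most of the growing downward genes (1747 of 2108) and about as many growing upward genes as no single group does (942 and 844 of 1845).

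Among growing genes driven by the silica lungs of 6 months that averaged at least 1 CPM in a group, Lpo had the largest interaction. It encodes lactoperoxidase, an airway enzyme that uses hydrogen peroxide to oxidise thiocyanate. Lpo was at 205, 277, 340.4, 279 and 272 CPM in silica lungs and at 0.778 and 1.36 CPM in air lungs of 6 months. At 1 day it was at 2.21 to 5.69 CPM (median 3.3) in silica lungs and at 0.353, 0.633, 0.369 and 0.485 CPM in air lungs. The silica lungs were above the air lungs at both times without overlap, and the silica lungs of 6 months were far above all other libraries. The fold changes were 7.96 at 6 months and 2.93 at 1 day on the log2 scale, an interaction of 5.03 ± 0.59 (SE, adjusted p = 0.000111), and the interaction passed in each of the 17 fits that left out 1 library. Chia, the acidic mammalian chitinase made by lung epithelium, was at 1394, 1976, 4197, 3296 and 2475 CPM in silica lungs and 72.9 and 126 CPM in air lungs of 6 months, and at 287 to 323 CPM (median 303) in silica lungs and 111, 109.7, 125 and 104 CPM in air lungs of 1 day. Its interaction was 3.31 ± 0.4 (adjusted p = 0.000144), with air lungs that overlapped between the times.

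The fatty acid carrier Fabp4, found in macrophages and fat cells, had a silica effect of -0.06 at 1 day (adjusted p = 0.991). It was at 21.4, 26.6, 101, 56.5 and 57.2 CPM in silica lungs and 7.6 and 5.52 CPM in air lungs of 6 months, while at 1 day it was at 9.68 to 12.6 CPM (median 10.8) in silica lungs and 12.5, 12.3, 10.3 and 10.1 CPM in air lungs. The interaction was 3.06 ± 0.57 (adjusted p = 0.00161), and all 5 silica lungs of 6 months were above every other library. The complement component C2 had the same pattern, at 165, 267, 477, 351 and 356 CPM in silica lungs and 87.6 and 102 CPM in air lungs of 6 months, with an interaction of 1.58 ± 0.32 (adjusted p = 0.00256). Lpo, Chia, Fabp4 and C2 passed without air 19-24, with a highest adjusted p of 0.0363 for C2.

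Other silica-driven genes lost the call without air 19-24. They are the ion channel Asic2 (interaction 3.66, adjusted p = 0.0223, and 0.122 without that library), complement factor D (Cfd, 1.47, 0.0166 and 0.161), the lipid droplet protein Cidec (1.51, 0.0202 and 0.131), the IgE receptor chain Fcer1a (2.55, 0.0145 and 0.104) and the mast cell tryptase Tpsb2 (2.38, 0.0255 and 0.17). The interaction of Asic2 was 4.44 without air 20-25 and 4.39 without silica 14 of 1 day, and that of Tpsb2 was 3.17 without air 20-25. Tpsb2 was at 1.43, 2.56, 8.19, 5.53 and 3.36 CPM in silica lungs and 0.599 and 1.4 CPM in air lungs of 6 months. Mcpt9, another mast cell protease gene, went the other way with the air lungs as driving group, at 0.858, 0.702, 0.475, 0.343 and 0.254 CPM in silica lungs and 6.58 and 1.12 CPM in air lungs of 6 months. Library 19-24 holds most of that difference: the interaction was -3.21 ± 0.78 and, without it, -1.44 (adjusted p = 0.222). In 54.5% of samples the Mcpt9 count was not whole, so its reads may be shared with a related gene. Of 14 markers of mast cells, basophils and eosinophils, 7 were more positive and 1 more negative at 6 months (median interaction 1.33), and none passed without air 19-24. Most of the 8 largest positive interactions were of unnamed loci, of which only LOC100912571 is described here. This locus rested on single libraries, at 5.84, 0, 108, 0 and 61.1 CPM in silica lungs of 6 months and 0 in both air lungs. It lost its call in 8 of 17 fits.

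**Figure D3:**
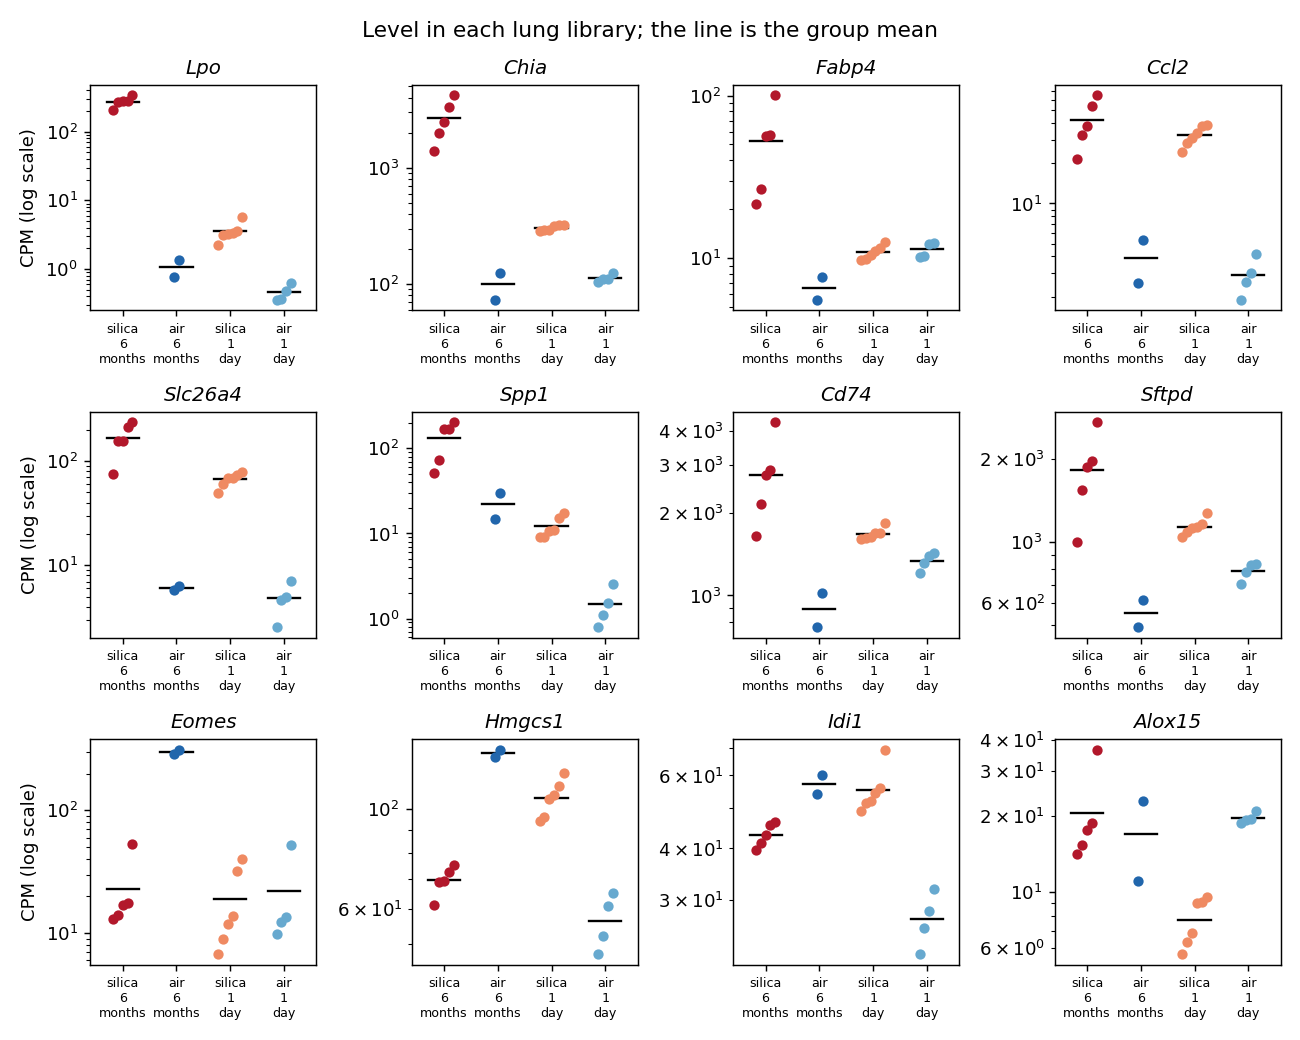
CPM on a log axis of 12 genes in each library of silica 6 months, air 6 months, silica 1 day and air 1 day, with a line at each group mean. Lpo and Chia stand apart in the silica lungs of 6 months, Eomes in the air lungs of 6 months, Alox15 is lowest in the silica lungs of 1 day, and Hmgcs1 is higher in the air lungs than in the silica lungs at 6 months but lower at 1 day.

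Genes of the acute-phase response, whose products bind metals, haem or bacterial lipids, had a larger silica effect at 6 months in 7 of 13 cases and a smaller one in none (median interaction 0.91). The other 6 were 5 persistent genes and 1 in no class. Orm1, the alpha-1-acid glycoprotein gene, was at 35.3, 34.1, 31.5, 20.2 and 19.8 CPM in silica lungs and 0.239 and 0.187 CPM in air lungs of 6 months, and at 1.65 to 3.32 CPM (median 2.6) in silica lungs and 0.353, 0.253, 0 and 0.182 CPM in air lungs of 1 day. Its air lungs stayed at or near the limit of 3 counts at both times, and its fold changes were 7.02 at 6 months and 3.55 at 1 day (interaction 3.46 ± 0.77, adjusted p = 0.00435). Hp, which encodes haptoglobin, had a smaller interaction of 1.15 ± 0.4 (adjusted p = 0.0444), which no longer passed in 13 of 17 fits with 1 library left out, with an adjusted p of up to 0.288 (without air 19-24). The lipopolysaccharide-binding protein gene Lbp (1.05, adjusted p = 0.0106) and the antiprotease gene Slpi (1.41, adjusted p = 0.019) also passed, but not without air 19-24 (0.124 for Lbp, 0.149 for Slpi). Without that library 1 of the 13 passed.

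Among complement genes, of 23 entries for 21 genes, 13 had a more positive silica effect at 6 months and none a more negative one (median interaction 0.54). Of the 13, 4 were driven by the silica lungs of 6 months, which drove 1.67% of all 4436 genes. Cfb, a protease of the alternative pathway, was at 1291, 1826, 3420.0, 2565 and 2083 CPM in silica lungs and 494 and 563 CPM in air lungs of 6 months, against 1038 to 1204 CPM (median 1154) in silica lungs and 679, 604, 641 and 669 CPM in air lungs of 1 day. Silica lungs were higher at 6 months than at 1 day by 0.98 (adjusted p = 0.00294), and the difference in air lungs was -0.29 (adjusted p = 0.353). Cfi, the regulator that cleaves C3b, rose at both times, with fold changes of 3.09 at 6 months and 1.86 at 1 day. Its interaction of 1.23 ± 0.42 (adjusted p = 0.0409) lost the call in 12 of 17 fits. Without air 19-24, 3 of the 23 entries passed, and Cfb did not (adjusted p = 0.0645).

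Neutrophil markers were 10 up and 0 down of 16 (median interaction 1.36), and 5 passed without air 19-24. S100a9, a subunit of calprotectin, abundant in neutrophils, was at 504, 764, 1849, 1086 and 595 CPM in silica lungs and 37 and 48.3 CPM in air lungs of 6 months, and at 299 to 473 CPM (median 329) in silica lungs and 109, 80.9, 88.8 and 98.2 CPM in air lungs of 1 day. The 4 groups did not overlap: silica lungs were higher at 6 months than at 1 day by 1.45 on the log2 scale and air lungs lower by the same comparison (-1.14), for an interaction of 2.6 ± 0.49 (adjusted p = 0.00181). Its partner S100a8 had an interaction of 2.6 ± 0.51 (adjusted p = 0.00226). Of the 10 genes called, 3 were driven by the air lungs of 6 months, which drove 64.0% of all 4436 genes. One of these, the receptor for granulocyte colony-stimulating factor, Csf3r, was at 55.1, 74.8, 61.7, 72.5 and 38.9 CPM in silica lungs and 7.84 and 11.3 CPM in air lungs of 6 months, against 52.1 to 90.1 CPM (median 55.1) in silica lungs and 43.3, 29.2, 31.2 and 41.1 CPM in air lungs of 1 day. Its silica lungs overlapped between the times and its air lungs did not (-1.92 on the log2 scale, adjusted p = 0.000133). The chemokine receptor Cxcr2 (interaction 1.52 ± 0.31) was likewise driven by the air lungs of 6 months.

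Interleukin 1 beta, Il1b, the cytokine released after lysosomal damage by silica, overlapped between the times in silica lungs, at 40.5, 50.8, 67.5, 45.8 and 49.9 CPM at 6 months and 35.9 to 52 CPM (median 39.8) at 1 day. Its air lungs held 9.1 and 10.3 CPM at 6 months and 29.2, 20.8, 24.5 and 24.4 CPM at 1 day, so its growing silica effect (interaction 1.61 ± 0.25, adjusted p = 0.000443) came with lower controls. The decoy receptor Il1r2 had the same order of groups (interaction 1.49 ± 0.42, adjusted p = 0.0154, and 0.115 without air 19-24). The inflammasome adaptor Pycard went down in the interaction (-1.94 ± 0.31, adjusted p = 0.000592), with 37.7, 24.7, 39.6, 24.1 and 28.4 CPM in silica lungs and 119 and 95 CPM in air lungs of 6 months. Retnla, a marker of alternatively activated macrophages in rodents, was at 46.5, 88.1, 439, 264 and 154 CPM in silica lungs and 3.11 and 4.86 CPM in air lungs of 6 months, and at 15.1 to 19.5 CPM (median 18.6) in silica lungs and 4.12, 3.16, 3.54 and 3.4 CPM in air lungs of 1 day. Its interaction was 3.29 ± 0.87 (adjusted p = 0.0122) and did not pass without air 19-24 (0.0974). Apoe, the lipid carrier expressed by lipid-laden macrophages, was reversed upward by its fold changes (1.22 at 6 months, -0.53 at 1 day, of which the late one passed). It held 592, 572, 1197, 794 and 1017 CPM in silica lungs and 308 and 406 CPM in air lungs of 6 months, against 369 to 438 CPM (median 405) in silica lungs and 613, 524, 615 and 595 CPM in air lungs of 1 day. Its interaction was 1.76 ± 0.29 (adjusted p = 0.000668). Of 20 lipid-associated and profibrotic macrophage genes, 9 were more positive and none more negative at 6 months (median interaction 0.71), and of 30 lysosome genes 17 were more positive and 1 more negative (0.44), among them the membrane protein Cd63 (1.14, adjusted p = 0.0057). Without air 19-24, 2 of the 20 and 2 of the 30 passed as more positive, and 1 of the 30 as more negative; Cd63 had an adjusted p of 0.059.

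Genes of antigen presentation on MHC class II grew in their silica effect, 9 up and none down of 11 (median interaction 1.28). Cd74, the invariant chain that guides class II molecules, was at 1646, 2167, 4301, 2767 and 2868 CPM in silica lungs and 765 and 1021 CPM in air lungs of 6 months, and at 1609 to 1844 CPM (median 1659) in silica lungs and 1425, 1212, 1400.1 and 1319 CPM in air lungs of 1 day. The air lungs of 6 months were below every other library, and the silica lungs of the 2 times overlapped through library 30-31. The interaction was 1.29 ± 0.31 (adjusted p = 0.00645). RT1-Db1, a class II beta chain, followed (1.37 ± 0.34, with counts not whole in 77.3% of samples), as did RT1-DOa, a modulator of peptide loading (1.5 ± 0.36). Without air 19-24 none of the 11 passed, although the median interaction was 1.1, and Cd74 had an adjusted p of 0.0792.

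Alveolar type 2 cells, which make surfactant, were represented by 16 genes, of which 14 had a more positive silica effect at 6 months and none a more negative one (median interaction 0.85). Their air lungs were lower at 6 months than at 1 day for 11 of the 16 (19% of all genes tested), and their silica lungs were higher for 5 (4.43% of all genes). Sftpd, encoding the surfactant protein D that binds microbes, was at 1004, 1542, 2722, 1967 and 1873 CPM in silica lungs and 489.7 and 615 CPM in air lungs of 6 months, and at 1047 to 1276 CPM (median 1129) in silica lungs and 830.2, 780.4, 825 and 702 CPM in air lungs of 1 day. The interaction was 1.19 ± 0.31 (adjusted p = 0.00991). The protease Napsa, which processes surfactant proteins, had an interaction of 1.13 ± 0.28, the lysozyme gene Lyz2 one of 1.12 ± 0.25 (counts not whole in 100% of samples) and the mucin Muc1 one of 1.11 ± 0.31. Without air 19-24, 2 of the 16 passed, and these 4 genes had adjusted p-values of 0.0991, 0.0786, 0.0528 and 0.141. In the summed level of the 16 genes the air lungs of 6 months were lowest, and silica 30-31 was the lowest of the silica lungs of 6 months (53867 CPM, against a highest of 113142 CPM).

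Alveolar type 1 cells, the thin cells of gas exchange, changed in their controls and, where they changed in silica lungs, downward. Of 15 markers 9 were more positive at 6 months and none more negative (median interaction 0.48), and silica lungs were higher at 6 months than at 1 day for none of the 15 and lower for 6 (5.21% of all genes tested), while air lungs were lower for 12 (19% of all genes). Cldn18, a tight junction protein of alveolar cells, held 887, 1086, 1214, 1177 and 1137 CPM in silica lungs and 589 and 642 CPM in air lungs of 6 months, and 996 to 1123 CPM (median 1065) in silica lungs and 943, 1078, 1037 and 1015 CPM in air lungs of 1 day. The 2 air lungs of 6 months were below all other libraries, and the interaction of 0.77 ± 0.13 (adjusted p = 0.000878) passed in every fit with 1 library left out. The receptor Ager and the water channel Aqp5 had interactions of 0.84 ± 0.21 and 0.78 ± 0.18, with the air lungs of 6 months as the driving group, and adjusted p-values of 0.0774 and 0.0706 without air 19-24. In bulk tissue, fewer cells of a type, less RNA per cell and more RNA from other cells cannot be told apart, here and for every other marker list.

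**Figure D4:**
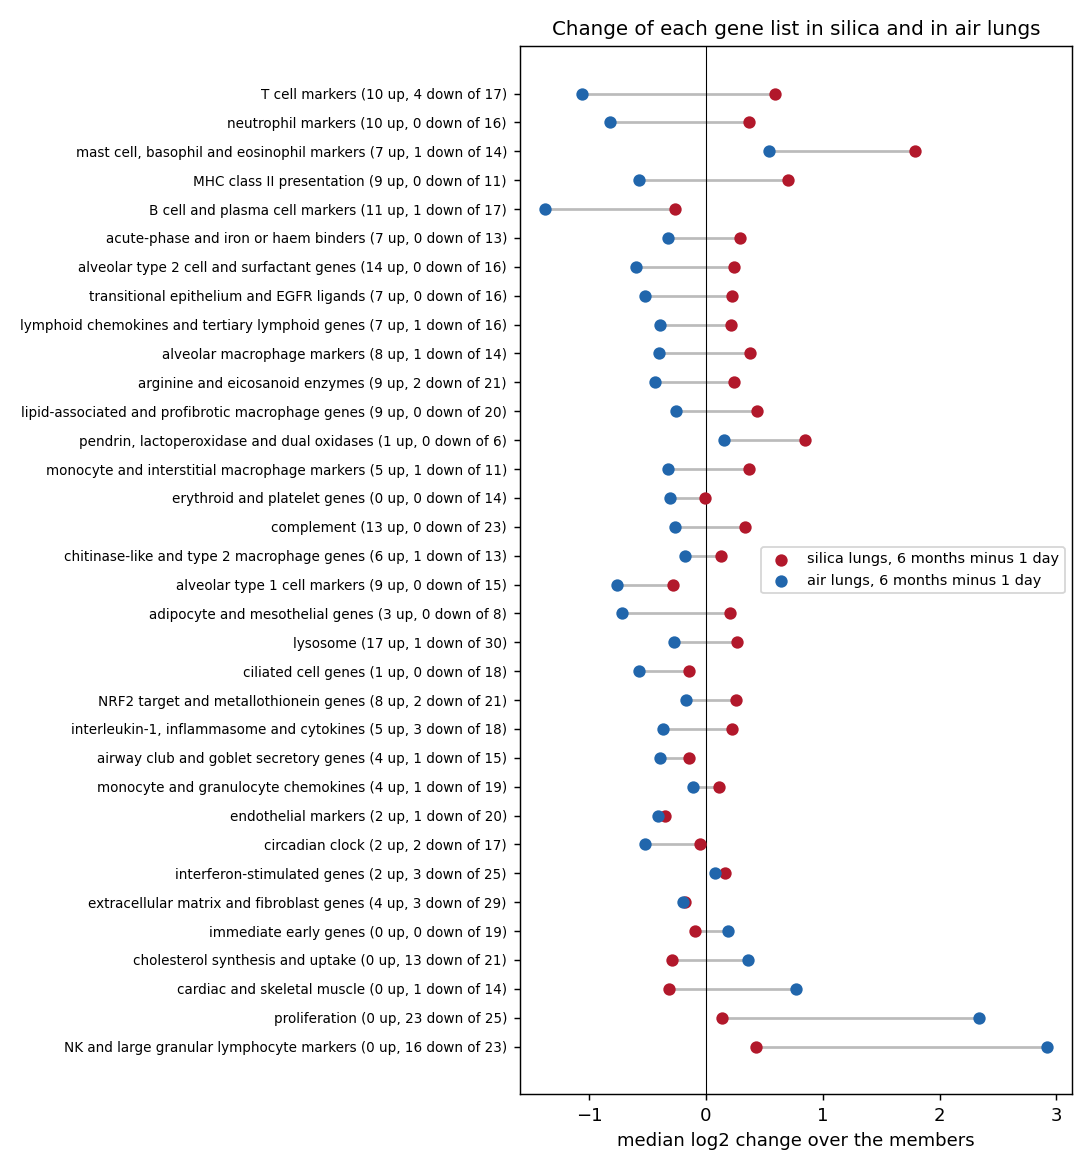
Median change between 1 day and 6 months on the log2 scale in silica lungs and in air lungs for 34 gene lists. The lists of alveolar type 2, antigen presentation and neutrophil genes have medians above 0 in silica lungs and below 0 in air lungs, and the NK and proliferation lists have medians of 2.92 and 2.33 in air lungs, against 0.43 and 0.14 in silica lungs.

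Genes of cytotoxic lymphocytes were high in the air lungs of 6 months. Of 23 markers of natural killer (NK) cells and large granular lymphocytes, 16 were more negative and none more positive (median interaction -2.48). The air lungs of 6 months drove all 16, against 64.0% of all 4436 genes. Eomes, a transcription factor of these cells, was at 53, 17, 13, 13.9 and 17.5 CPM in silica lungs and 314 and 290.5 CPM in air lungs of 6 months, and at 6.68 to 39.9 CPM (median 12.8) in silica lungs and 13.5, 52, 12.2 and 9.89 CPM in air lungs of 1 day. Both air lungs of 6 months were above all other libraries, and silica 30-31 and air 04-08 were the highest of their groups. The interaction was -3.51 ± 0.94 (adjusted p = 0.0132), and -3.53 without air 20-25 or -3.45 without air 19-24, where it did not pass (0.061). Other members with low or shared reads had the same direction: the granzymes Gzmf (-6.18 ± 1.45, not whole in 72.7% of samples) and Gzmbl2 (-3 ± 0.65, 100%) and the signalling adaptor Sh2d1b2 (-3.27 ± 0.68, 100%). Without air 19-24, 7 of the 23 passed, and Gzmf (-4.65, adjusted p = 0.0753) and Sh2d1b2 (-2.35, 0.0543) did not. Without air 04-08 of 1 day the Eomes interaction was -4.39, and without air 20-25 that of Gzmf was -6.87.

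The summed level of the NK list was 522 to 1706 CPM in silica lungs and 5334 and 4772 CPM in air lungs of 6 months, and 347 to 1189 CPM in silica lungs and 514 to 1150 CPM in air lungs of 1 day. Both air lungs of 6 months were above all other libraries. Within the other groups the highest were silica 30-31 at 6 months, and silica 10 and air 04-08 at 1 day. The sum of the proliferation genes was highest in the same libraries, at 440.3 to 831 CPM in silica lungs and 1676 and 1519 CPM in air lungs of 6 months, and 429 to 660.4 CPM in silica lungs and 265 to 697 CPM in air lungs of 1 day. With silica 30-31, silica 10 and air 04-08 left out, 4756 genes passed the interaction test, 4141 of them among the 4436, and the number driven by the silica lungs of 6 months was 133. These libraries were chosen by their NK sums, and both air lungs of 6 months, with the highest sums, stayed in. The fit therefore cannot show how the calls depend on NK content. Fischer 344 rats are known for large granular lymphocyte leukaemia in old age. No pathology of these animals was used here, and the part of such cells in these results was not tested.

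Of 25 proliferation genes, 23 had a more negative silica effect at 6 months and none a more positive one (median interaction -2.16). By their fold changes 11 of them were growing downward and 12 reversed. Mki67, a marker of dividing cells, was at 120.3, 64, 42.9, 56.5 and 44.6 CPM in silica lungs and 301 and 252 CPM in air lungs of 6 months, and at 47.8 to 88.7 CPM (median 56) in silica lungs and 18.6, 101, 20.5 and 21 CPM in air lungs of 1 day. At 1 day 3 of the 4 air lungs were below all silica lungs and air 04-08 was above them. The interaction was -2.64 ± 0.71 (adjusted p = 0.0135), and the mitotic kinesins Kif11 (-2.76 ± 0.67) and Kif20a (-2.8 ± 0.59) and the topoisomerase Top2a (-2.59 ± 0.81) had like values. Without air 19-24, 10 of the 25 passed, Kif20a among them but not Mki67 (0.074), Kif11 (0.0523) or Top2a (0.122). Top2a lost the call in 5 of 17 fits. Without air 04-08 of 1 day the interactions were more negative, -3.65 for Mki67, -3.68 for Kif11, -3.63 for Kif20a and -3.74 for Top2a.

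**Figure D5:**
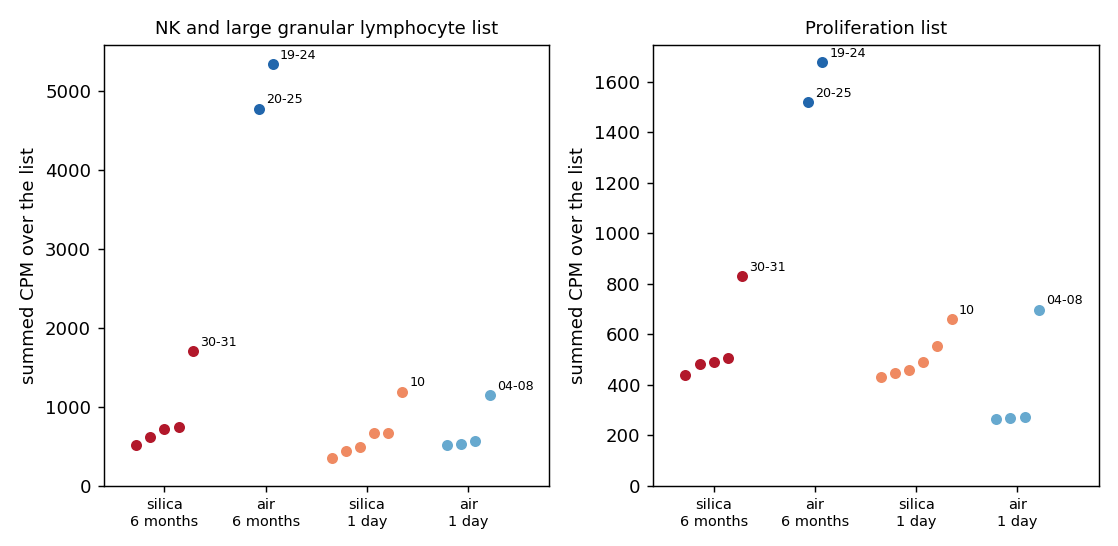
Summed CPM of the 23 NK list genes and of the 25 proliferation genes in each library of silica 6 months, air 6 months, silica 1 day and air 1 day. Both air lungs of 6 months (5334 and 4772 CPM for the NK list) are above all other libraries, and silica 30-31, silica 10 and air 04-08 are the highest of their groups.

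T cell markers split. Cd8a, a co-receptor that rat NK cells also carry, had an interaction of -2.9 ± 0.74 (adjusted p = 0.0102, and 0.0713 without air 19-24), and the receptor signalling chain Cd247, shared by T and NK cells, one of -3.3 ± 0.55 (adjusted p = 0.000908). Cd3g, a chain of the T cell receptor complex, went the opposite way, with 8.81, 11.4, 16.1, 9.99 and 19.9 CPM in silica lungs and 2.57 and 3.18 CPM in air lungs of 6 months, and 7.17 to 9.89 CPM (median 8.87) in silica lungs and 9.52, 14.4, 9.89 and 8.13 CPM in air lungs of 1 day. The air lungs of 6 months were the lowest libraries, and the interaction was 2.45 ± 0.37 (adjusted p = 0.00041). In all, 10 of 17 T cell markers were more positive and 4 more negative at 6 months. The T cell chemoattractant Ccl5, which cytotoxic cells also make, had a more negative effect at 6 months (-2.31 ± 0.72, adjusted p = 0.028, and 0.158 without air 19-24). The integrin Itgax, on rat macrophages and dendritic cells, had an interaction of -2.89 ± 0.4, with 198, 94.5, 84.9, 92.2 and 87.5 CPM in silica lungs and 574 and 395 CPM in air lungs of 6 months and counts that were not whole in 95.5% of samples.

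B cell markers were low in the air lungs of 6 months. Of 17, 11 were more positive and 1 more negative at 6 months (median interaction 1.18). Cd79b, a signalling chain of the B cell receptor, was at 3.95, 2.81, 7.3, 4.85 and 6.03 CPM in silica lungs and 0.718 and 0.654 CPM in air lungs of 6 months, and at 5.6 to 8.13 CPM (median 6.56) in silica lungs and 9.52, 6.52, 6.64 and 6.79 CPM in air lungs of 1 day. Silica lungs overlapped between the times, and the interaction was 2.97 ± 0.4 (adjusted p = 0.000226). Its partner Cd79a was at 0 in both air lungs of 6 months, where 3 counts would be 0.180 and 0.140 CPM, against 0.572, 0.165, 0.178, 1.17 and 0.317 CPM in silica lungs, so no fold is given. Cd79a passed the interaction test but lost the call in 1 of 17 fits with 1 library left out, that without air 19-24. The low-affinity IgE receptor Fcer2, found on B cells, was at 3.83, 3.59, 4.21, 4.9 and 4.25 CPM in silica lungs and 0.479 and 0.467 CPM in air lungs of 6 months, with an interaction of 2.44 ± 0.35.

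Among genes driven by the air lungs of 6 months, those with the smallest adjusted p had narrow groups. Rab27a, a small GTPase needed for the release of cytotoxic granules, was at 179, 166, 158, 174 and 151 CPM in silica lungs and 304 and 276 CPM in air lungs of 6 months, and at 152 to 172 CPM (median 161) in silica lungs and 112, 139, 118 and 113 CPM in air lungs of 1 day. Its interaction was -1.22 ± 0.11 (adjusted p = 2.68e-05). St6galnac4, a sialyltransferase, had an interaction of -1.53 ± 0.14 (adjusted p = 2.95e-05), and both passed in every fit with 1 library left out. Genes near 0 in the other 3 groups were among the 8 with the largest negative interactions. Arl14epl was at 0.114, 0, 0.178, 0.0979 and 0.0634 CPM in silica lungs and 7.54 and 1.54 CPM in air lungs of 6 months and did not exceed 0.291 CPM at 1 day. Wnt10b, a Wnt ligand, was at 2.27 and 1.96 CPM in air lungs of 6 months and at 2.90 CPM in 1 silica lung of 1 day, library 10, with 0.196 CPM or less elsewhere.

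Genes of cholesterol synthesis and uptake made up 11 of the fading and reversed genes. Of 21 tested, 13 were more negative at 6 months and none more positive (median interaction -0.66): 9 faded, 2 reversed and 2 grew downward. Relative to air lungs, silica lungs were higher for 2 of the 21 and lower for 6 at 6 months (17.8% and 21.4% of all genes tested), and higher for 16 at 1 day (2.78% of all genes). Air lungs were higher at 6 months than at 1 day for 12 of the 21 (22.5% of all genes), and silica lungs were lower for 9 (5.21%). The pathway is switched on as a unit by sterol-regulated transcription factors, which act at promoters together with factors that bind CCAAT boxes. The promoters of 3 genes are shown because their genes are the reversed gene with the smallest adjusted p, a fading gene driven by the air lungs of 1 day and 1 driven by the silica lungs of 1 day. Each is the stretch of 250 bases before the start of the gene in RefSeq, build GRCr8, written 5′ to 3′ on the gene's strand, with CCAAT or its reverse complement ATTGG in capitals: Hmgcs1 at chr2:53382054-53382303 (plus strand), Idi1 at chr17:66547525-66547774 (minus strand) and Hsd17b7 at chr13:84722755-84723004 (minus strand).
Hmgcs1: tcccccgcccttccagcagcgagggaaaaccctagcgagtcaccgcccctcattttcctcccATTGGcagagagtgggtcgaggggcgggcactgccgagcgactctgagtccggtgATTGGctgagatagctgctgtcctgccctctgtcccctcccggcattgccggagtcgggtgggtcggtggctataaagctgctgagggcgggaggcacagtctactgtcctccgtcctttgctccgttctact
Idi1: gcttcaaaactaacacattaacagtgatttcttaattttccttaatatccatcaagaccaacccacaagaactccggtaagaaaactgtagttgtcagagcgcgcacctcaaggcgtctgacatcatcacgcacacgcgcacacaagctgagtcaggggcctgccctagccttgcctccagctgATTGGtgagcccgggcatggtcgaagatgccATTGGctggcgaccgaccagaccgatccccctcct
Hsd17b7: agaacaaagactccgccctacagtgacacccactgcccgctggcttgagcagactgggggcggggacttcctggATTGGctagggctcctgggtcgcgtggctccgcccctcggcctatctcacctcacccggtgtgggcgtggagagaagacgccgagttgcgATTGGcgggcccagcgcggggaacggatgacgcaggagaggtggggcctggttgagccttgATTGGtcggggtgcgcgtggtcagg

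The motif CCAAT, on either strand, was found 2 times in the Hmgcs1 promoter, 2 times in that of Idi1 and 3 times in that of Hsd17b7. It was present in 12 of the 14 promoters matched to the 21 genes by symbol, and in 8 of the 10 matched to the 13 genes that passed. Of all 33469 rat promoters of the same length in that table, 34.02% held it. The sterol element type TCACNCCAC was in none of the 14 and in 0.974% of all promoters. These matches describe letters in a window and are no sites of binding.

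Hmgcs1, which makes the HMG-CoA used for cholesterol, had the smallest adjusted p of all interactions. It was at 75.2, 68.8, 61.2, 72.5 and 69.1 CPM in silica lungs and 136 and 131 CPM in air lungs of 6 months, and at 94.3 to 121 CPM (median 106) in silica lungs and 60.8, 65, 52.2 and 47.4 CPM in air lungs of 1 day. Silica lungs were lower than air lungs at 6 months and higher at 1 day, without overlap at either time. The fold changes were -0.94 ± 0.11 (SE, adjusted p = 1.95e-05) at 6 months and 0.91 ± 0.09 (adjusted p = 4.42e-05) at 1 day, and the interaction was -1.86 ± 0.15 (adjusted p = 1.25e-05). For this gene 2 group means moved: the air lungs were higher at 6 months than at 1 day by 1.24 and the silica lungs lower (-0.61).

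Idi1, the isomerase that makes dimethylallyl diphosphate, was sorted as fading because its late fold change was the smaller one in size, -0.4 (adjusted p = 0.0206) at 6 months and 1.04 (adjusted p = 4.42e-05) at 1 day. It was at 41.3, 46.2, 43.1, 45.6 and 39.8 CPM in silica lungs and 60.3 and 54 CPM in air lungs of 6 months, and at 49.4 to 69.3 CPM (median 53.3) in silica lungs and 28.2, 31.9, 25.7 and 22.2 CPM in air lungs of 1 day, and the air lungs of 1 day were the group apart. Hsd17b7, a ketoreductase of the pathway, was driven by the silica lungs of 1 day at 9.1 to 15.8 CPM (median 13.1), with 7.9, 9.95, 7.54, 9.15 and 6.66 CPM in silica lungs and 7.96 and 7.81 CPM in air lungs of 6 months and 7.17, 7.4, 5.61 and 6.92 CPM in air lungs of 1 day. Its interaction of -0.81 ± 0.24 (adjusted p = 0.0219) did not pass without either air library of 6 months (0.102 without 19-24, 0.0707 without 20-25). The list also held 2 persistent genes: Sqle and Insig1 were higher in silica lungs at both times. Without air 19-24, 9 of the 21 genes passed.

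Outside that pathway, 2 further reversed genes passed at both times with narrow groups. Ccl4, a chemokine for monocytes and lymphocytes, was at 15.9, 14.6, 16.6, 12.5 and 14.9 CPM in silica lungs and 41.9 and 36.6 CPM in air lungs of 6 months, and at 9.19 to 13.6 CPM (median 10.5) in silica lungs and 8, 7.97, 6.72 and 7.83 CPM in air lungs of 1 day. The rise in the air lungs, 2.36 on the log2 scale, was larger than that in the silica lungs, 0.45, and the interaction was -1.91 ± 0.17 (adjusted p = 2.68e-05). Ass1, argininosuccinate synthase, which regenerates arginine, reversed upward. It was at 34.9, 39.1, 40.1, 35 and 37.5 CPM in silica lungs and 20.2 and 24.6 CPM in air lungs of 6 months, and at 21.9 to 26.5 CPM (median 23.6) in silica lungs and 43.4, 35.3, 38 and 40.2 CPM in air lungs of 1 day, which is lower silica lungs at 1 day and higher ones at 6 months. Its interaction was 1.46 ± 0.13 (adjusted p = 2.68e-05), with changes of 0.65 in silica lungs and -0.81 in air lungs between the times.

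Gpihbp1, the endothelial anchor of lipoprotein lipase, was placed among the reversed upward genes by its fold changes (1.06 at 6 months, -0.51 at 1 day), of which the late one passed and the early one did not (adjusted p = 0.206). It was at 34.5, 33.9, 54.8, 32.8 and 49.98 CPM in silica lungs and 23.1 and 16.3 CPM in air lungs of 6 months. Plekhs1 and the centromere gene Cenpu were reversed downward, with the air lungs of 1 day as the group apart (interactions -2.27 ± 0.42 and -2.72 ± 0.69, and -3.4 for Cenpu without air 04-08). Clca1, a goblet cell secretory gene, was also in that class (interaction -5.8 ± 1.44), but its air lungs of 6 months held 0.239 and 9.49 CPM, and without air 20-25 the interaction was -1.44 (adjusted p = 0.62).

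Of the 189 fading genes, 128 changed between the times in air lungs and not in silica lungs and 5 the reverse, and 88 had passed at 1 day. Of all 4436 genes past the interaction threshold, 3618 (81.6%) changed in air lungs only and 226 in silica lungs only. Nr4a3, an early-response nuclear receptor, was at 12.2, 13.7, 9.5, 12.7 and 9.2 CPM in silica lungs and 11.7 and 11.6 CPM in air lungs of 6 months, and at 8.58 to 11.7 CPM (median 9.95) in silica lungs and 2.94, 4.43, 2.95 and 2.91 CPM in air lungs of 1 day. The air lungs of 1 day were the low group, and the other 3 groups overlapped. The silica effect was -0.02 at 6 months and 1.6 at 1 day, an interaction of -1.62 ± 0.23 (adjusted p = 0.000295). Of 19 immediate early genes tested, a list that does not hold it, none passed in either direction by edgeR, DESeq2 or limma-voom, and 1 had an unadjusted p under 0.05 (median interaction -0.44).

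Alox15, a lipoxygenase that makes lipid mediators, was 1 of 3 genes driven by the silica lungs of 1 day. It was at 36.6, 17.6, 15.4, 14.1 and 18.6 CPM in silica lungs and 22.9 and 11 CPM in air lungs of 6 months, and at 5.63 to 9.49 CPM (median 7.96) in silica lungs and 19.2, 20.8, 18.8 and 19.4 CPM in air lungs of 1 day. The early fall in silica lungs (-1.33) was not seen at 6 months (0.27, adjusted p = 0.55), when library 30-31 was the highest. The interaction of 1.61 ± 0.43 (adjusted p = 0.0124) did not pass without air 20-25 (0.0766) and was 2.22 without air 19-24. Tac1, the substance P precursor gene, faded through its air lungs, at 0.114, 0.289, 0.178, 0.245 and 0.571 CPM in silica lungs and 0.539 and 0.28 CPM in air lungs of 6 months, and at 0.103 to 0.323 CPM (median 0.257) in silica lungs and 1.18, 1.77, 2.21 and 0.971 CPM in air lungs of 1 day. Its interaction of 2.13 ± 0.66 (adjusted p = 0.0259) did not pass without either air library of 6 months (0.0564 without 19-24, 0.12 without 20-25). Igfbp2, a binding protein for insulin-like growth factors and a marker of type 1 cells, faded as well (interaction 0.91 ± 0.21, adjusted p = 0.00534, and 0.0577 without air 19-24). For the membrane protein Tmc5, the signalling regulator Rgs9 and the cadherin Cdh17, the interaction was nearest to 0 without 1 air library of 6 months. The interactions were -1.87, -1.67 and -1.46, and -0.53 and -0.84 without air 20-25 and -0.57 without air 19-24. With 1 library left out in turn, Rgs9 lost the call in 10 of 17 fits, Tmc5 in 2 and Cdh17 in 1. The interaction of Tmc5 was -2.51 without air 19-24, and that of Rgs9 was -2.32 without air 04-08.

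Among the 229 persistent genes the median interaction was 0.29, and 181 had the larger fold change at 6 months. For 130 of them the 95% interval of the interaction lay within 1 log2 unit of 0. Chemokines for monocytes and granulocytes were the list with the most persistent members, 8 of 19, against 229 of all 16567 genes tested. The list also held 4 growing upward genes and Ccl4. Ccl2, which draws monocytes, was at 21.4, 32.7, 65, 54.3 and 38.2 CPM in silica lungs and 2.51 and 5.33 CPM in air lungs of 6 months, and at 24.5 to 39 CPM (median 32.4) in silica lungs and 2.59, 4.18, 3.03 and 1.88 CPM in air lungs of 1 day. Both silica groups overlapped, as did both air groups. Its interaction was -0.07 ± 0.5, with a 95% interval of -1.14 to 0.99, and 0.63 without air 20-25. Ccl7, a related monocyte chemokine, had an interaction of 0.48 ± 0.69 (-0.99 to 1.95, and 1.35 without air 20-25), and the neutrophil chemokines Cxcl1 and Cxcl6 had interactions of 0.23 ± 0.32 (-0.44 to 0.9) and 1 ± 0.49 (-0.03 to 2.04).

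Slc26a4, which encodes the anion exchanger pendrin of airway epithelium, was at 74.9, 157, 235, 214 and 155 CPM in silica lungs and 5.75 and 6.36 CPM in air lungs of 6 months, and at 49.7 to 79.4 CPM (median 68.4) in silica lungs and 4.7, 7.09, 4.95 and 2.55 CPM in air lungs of 1 day. Silica lungs were higher at 6 months than at 1 day by 1.32 (adjusted p = 0.00485), yet the interaction of 0.99 ± 0.49 (-0.04 to 2.02) did not pass (adjusted p = 0.147). The siderophore-binding protein gene Lcn2 was close to it (0.95 ± 0.46, -0.04 to 1.93). Ly6al had nearly equal fold changes, 3.72 at 6 months and 3.59 at 1 day, and an interaction of 0.14 ± 0.43 (-0.76 to 1.04). The mitochondrial superoxide dismutase gene Sod2 had an interaction of 0.36 ± 0.2 (-0.06 to 0.79), and Vat1l one of 1.8 ± 1.16 with a wide interval (-0.66 to 4.26, and 0.6 without air 06).

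Spp1, or osteopontin, a matrix-binding cytokine of macrophages, kept its silica effect while both exposed and control lungs were higher at 6 months. It was at 51.5, 74, 203, 172 and 172 CPM in silica lungs and 30.1 and 14.7 CPM in air lungs of 6 months, and at 9.14 to 17.6 CPM (median 10.8) in silica lungs and 1.53, 2.53, 1.11 and 0.789 CPM in air lungs of 1 day. The change between the times was 3.46 in silica lungs and 3.89 in air lungs, and the interaction was -0.43 ± 0.69 (-1.89 to 1.03), with 0.18 without air 19-24. The macrophage elastase Mmp12 had an interaction of 0.71 ± 0.58 (-0.52 to 1.95, and 1.39 without air 20-25). Chi3l1, a chitinase-like lectin, lay just outside the threshold (0.91 ± 0.34, adjusted p = 0.0552) and passed without air 20-25 (0.0443), so its place between persistent and growing depends on that library.

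The 9 persistent genes that were lower in silica lungs included Dlk1, Enpp1 and Cav1. The non-canonical Notch ligand Dlk1 stood at 21.6, 7.39, 10.4, 10.9 and 11.9 CPM in silica lungs and 24.2 and 33.7 CPM in air lungs of 6 months, and at 8.12 to 23.4 CPM (median 9.97) in silica lungs and 42.2, 41.6, 55.2 and 56.8 CPM in air lungs of 1 day (interaction 0.77 ± 0.5, -0.29 to 1.83). The ectonucleotidase Enpp1 and the caveolar protein Cav1 had interactions of -0.17 ± 0.15 (-0.48 to 0.15) and 0.03 ± 0.12 (-0.23 to 0.29). The late effect of Cav1 no longer passed without air 19-24 or without air 20-25, and that of Dlk1 without air 20-25. Among matrix and fibroblast genes 4 of 29 entries were more positive and 3 more negative (12.1% and 14.6% of all genes tested), with a median interaction of 0.02. Timp1, an inhibitor of matrix proteases, passed at 0.75 ± 0.25 (adjusted p = 0.0374). It lost the call in 7 of 17 fits with 1 library left out, those without air 19-24 (interaction 0.66) and air 20-25 (0.90) among them. Col1a1, the main chain of type I collagen, was at 202, 162, 132, 148 and 171 CPM in silica lungs and 94.8 and 175 CPM in air lungs of 6 months, and its interaction of 0.21 ± 0.22 did not pass (adjusted p = 0.522), whereas without air 20-25 it was 0.76 (adjusted p = 0.0129).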

How the data were processed

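RNA was measured in 22 lung samples. A fibrous-tissue kit was used for the RNA, per the labels' protocols, and the libraries were stranded and made from polyadenylated RNA. Tools named in the submitters' processing notes, without roles or an order, are Salmon 1.10.1, STAR 2.6.1d, Trim Galore 0.6.7, cutadapt 3.4 and bcl2fastq 2.19, and the build named is Rnor_6.0, with an annotation release not given in the sources used here. Gene-level estimated counts, without scaling to depth, were deposited by the authors in 1 table for each time. An estimated count can be a fraction where reads fit several genes, and shares not whole (tolerance 1e-06) are given beside such genes. All columns were matched to samples, with 0 left over. Each table holds 30045 identifiers with 29496 names.

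Counts were rounded, and both lung tables were joined by identifier. Near-identical pairs within a group were averaged. Genes were kept by filterByExpr (at least 10 counts in enough libraries, 15 in all) and scaled by TMM, with factors of 0.942 to 1.03. A single edgeR 4.0.16 quasi-likelihood fit in R 4.3.3, with 1 mean for each of the 4 groups and robust dispersions, gave all contrasts, with Benjamini-Hochberg adjustment over all genes tested and a threshold of 0.05. Errors of fold changes are SE. Levels are CPM, and floors of 3 counts cover counting error only. The procedure was tested on simulated data. Alternatives used DESeq2 1.42.0 and limma 3.58.1 (voom).

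The text names genes with a mean of at least 1 CPM in a group by rank: the 8 largest interactions each way and the 6 smallest adjusted p of the rest, the 5 largest of each class and direction, the 4 of each driving group and of each list, and 19 fixed genes. A few genes that the rule names are not reported here. The members, lists and this rule were chosen with earlier results of these data known.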

Additional observations from a re-analysis of the deposited data

Results flagged for a closer look

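Genes whose silica effect differed between 6 months and 1 day numbered 4436, of which 2012 were more positive and 2424 more negative at 6 months. Among 97 genes taken from the naming rule, which names more, a library stood apart from the rest of its group (Dixon's test at 95%) in 45 of 291 lung groups tested. Chance flags about 1 in 20.

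At 6 months, silica 30-31 was highest for Itgax (198 CPM), Ccl5 (423), Cd8a (209), Cd247 (59.4), Eomes (53.0), Mki67 (120), Kif20a (15.9), Top2a (67.8) and Alox15 (36.6). Silica 33 was highest for Timp1 (53.5 CPM) and lowest for Rgs9 (0.831), and silica 32 lowest for Wnt10b (0.0826).

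In silica lungs of 1 day, library 10 was highest for Gzmbl2 (65.2 CPM), Mki67 (88.7), Kif20a (14.4), Top2a (50.8), Wnt10b (2.90) and Fam19a4 (4.13), and lowest for Lyz2 (25200). Library 13 was highest for S100a8 (125 CPM), S100a9 (473), Cxcr2 (40.3), Mepe (0.569) and LOC100912571 (0.620). Library 14 was highest for Cd74 (1840 CPM) and RT1-DOa (9.68), library 11 for Idi1 (69.3) and Gpihbp1 (75.1), and library 15 for Hp (129) and Dlk1 (23.4).

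In air lungs of 1 day, 04-08 was highest for Ccl5 (262 CPM), Pycard (22.9), Cd8a (69.5), Eomes (52.0), Mki67 (101), Kif11 (21.1), Kif20a (11.2), Top2a (63.4), Tdrd1 (0.127), Nr4a3 (4.43) and Mmp12 (11.9). Air 02-07 was highest for LOC100912571 (11.8 CPM), Hp (52.0) and Cd79b (9.52), and air 05 was lowest for Ccl4 (6.72). The part of these libraries in the results was not tested gene by gene beyond leaving each out.

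In blood, the air rat 25 of 6 months had 201 CPM of Eomes, against 17.4 to 19.2 CPM in the other 5 air rats of that time. Lung samples 20 and 25 of that group are the pair averaged as air 20-25.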

How the results depend on the processing

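Of the 81 genes picked by the naming rule and past the interaction threshold, 41 kept the call without air 19-24, 70 without air 20-25 and 74 or more in each other alternative (77 of the 77 with a value in DESeq2), and none reversed.

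With 1 library left out in turn, the interaction count was 1642 to 5570 (587 to 2434 up, 1055 to 3136 down), the 6-month count 3145 to 7422 and the 1-day count 298 to 969. Growing genes numbered 1391 to 4954, fading 57 to 327, reversed 194 to 493 and persistent 151 to 300. Driven genes numbered 15 to 186 for silica and 1140 to 3650 for air at 6 months, 0 to 6 for silica and 14 to 66 for air at 1 day, and 473 to 1935 for no single group. Calls in the lists were 117 to 317 (main 276). The lowest interaction count came without air 19-24 and the highest without silica 33; leaving out an air library of 6 months leaves 1, which is assumed to vary like the other groups.

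The 1-day count was 896 with DESeq2, 1869 with voom and group weights, 995 with 22 separate libraries, 326 at 1.5-fold or more and 1836 with each time on its own table. The 6-month count was 3732 at 1.5-fold and 3189 on its own table. Persistent genes numbered 431 with voom. With 22 libraries, 387 genes faded, and 8 were driven by silica and 91 by air at 1 day. At 1.5-fold, 1588 interactions were negative and 98 genes faded. With a range of at most 0.25 times the distance, the driving group was silica for 20 and air for 1358 genes at 6 months, silica for 1 and air for 11 at 1 day, and no single group for 3046. Calling any opposite signs reversed gave 1600 growing, 10 fading and 2826 reversed genes. With silica 30-31, silica 10 and air 04-08 left out, a choice made after seeing the data, 133 genes were driven by silica at 6 months. The cause of these shifts was not tested where the construction does not show it.

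No paired analysis was possible because the lung groups share no rat number. At 6 months, 2 air libraries limit what can be called, and genes near 3 counts have uncertain fold changes.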

Other observations

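The summed level of the NK list was also read in blood, which enters no comparison here. At 6 months it was 396 to 1121 CPM (median 717) in silica rats and 602 to 3245 CPM (median 879.5) in air rats. At 1 day it was 348 to 991 CPM (median 696) in silica rats and 645 to 819.6 CPM (median 723) in air rats (n = 6 in each group). The perforin gene Prf1, whose product opens target cell membranes, was at 612 CPM in air rat 25 of 6 months. It was at up to 231 CPM in the other air rats of that time and up to 164 CPM in air rats of 1 day. Silica rats reached 215 CPM at 6 months and 211 CPM at 1 day. Among air rats of 6 months, rat 25 had the highest sum, 3245 CPM, rat 20 had 1057 CPM and rat 19 had 602 CPM. Blood of rat 24 was not analysed here.

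Muscle genes passed in 1 of 14 cases (26.8% of all genes tested), with a median interaction of -1.11 that was 1.12 without air 20-25. Of 25 interferon-stimulated genes 2 were more positive and 3 more negative at 6 months (12.1% and 14.6% of all genes tested). Of 14 erythroid and platelet genes none passed by edgeR (4 at an unadjusted p under 0.05) or limma-voom, and 2 by DESeq2.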
